A study of Mus musculus with 16 samples.

Results

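The genes described here are 41 genes of the extracellular matrix and of hepatic stellate cells, read from the 41585 rows of a gene count table of mouse liver. They were chosen by symbol, with earlier results of these data known, and all 41 symbols were found. By role they fall into 6 fibrillar and associated collagens, 7 network collagens, 11 glycoproteins and proteoglycans, 4 crosslinking enzymes, 5 proteases and inhibitors, 4 signals and receptors, and 4 stellate and contractile markers.

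The study asked what human CYP2B6, a drug- and fatty-acid-metabolising liver enzyme, does to the liver transcriptome in diet-induced obesity. RNA was sequenced from 4 hCYP2B6-Tg female, 4 Cyp2b-null female, 4 hCYP2B6-Tg male and 4 Cyp2b-null male livers. Mice of both genotypes were of the C57BL/6 strain and ate a diet with 60% fat for 16 weeks, so no group had a standard diet. The sources used here do not give which Cyp2b genes the null mice lack, whether the hCYP2B6-Tg mice lack them too, the promoter of the transgene or the age of the mice. Libraries are named by group and by the number in their title.

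Hepatic stellate cells lie between hepatocytes and the sinusoidal endothelium, where they store vitamin A and make little matrix. In injured or fatty liver, signals such as transforming growth factor beta and platelet-derived growth factor turn them into contractile myofibroblasts that secrete fibrillar collagen, crosslinking enzymes and inhibitors of matrix proteases. Hepatocytes, sinusoidal endothelium and fibroblasts of the portal tracts make matrix as well, and hepatocytes secrete plasma fibronectin and much of the collagen XVIII of the liver.

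Library totals ran from 5584587 to 9672708 counts, and levels are given in CPM (read counts scaled to library size, on totals corrected by TMM). Where a gene had no count, a limit of 3 counts puts its level under 0.310 to 0.537 CPM, depending on the library, for counting error only. Hepatocyte markers summed to 97892 to 129078 CPM over the 16 libraries. Cyp2b-null male 4 stood apart: it had 78 counts of the smooth muscle actin gene Acta2, 113 of Tagln, 42 of Myh11, 270 of the bile duct keratin Krt19, 69 of Epcam and 159 of the pancreatic gene Ctrb1, against at most 5, 46, 5, 4, 5 and 0 in the other Cyp2b-null males. Some of the results that involve this library are therefore also given without it. The labels do not say that each library is a separate animal, so the p-values reflect the variation among libraries, and that variation may be technical in part. In whole liver, fewer cells of a type and less RNA per cell cannot be told apart.

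Levels of the 41 genes spanned from plasma-protein range to near 0. Fibronectin (Fn1) and collagen XVIII (Col18a1) together held 78.2% of all counts of the listed genes. Per kilobase of exon, the mean level over the 16 libraries was 136 CPM for Fn1 and 119 CPM for Col18a1, then 25.4 for decorin (Dcn), 13.0 for biglycan (Bgn), 11.3 for osteonectin (Sparc), 7.99 for the membrane protease Mmp14 and 7.89 for Col14a1. The vitamin A enzyme Lrat, a marker of quiescent stellate cells, stood at 5.03 CPM per kilobase, above Col3a1 at 1.78, Col1a2 at 0.531 and Col1a1 at 0.352. At the low end were elastin (Eln) at 0.124, Timp1 at 0.102 and lysyl oxidase (Lox) at 0.0304 CPM per kilobase, with no Timp1 count in 9 libraries and no Lox count in 6. Not scaled by length, 15 genes averaged at least 10 CPM and 3 averaged under 1 CPM. As a share of a library's counts, the 41 genes took 0.316% to 0.377% in hCYP2B6-Tg females, 0.314% to 0.353% in Cyp2b-null females, 0.268% to 0.294% in hCYP2B6-Tg males and 0.282% to 0.297% in Cyp2b-null males, so that every female library lay above every male library.

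**Figure D1:**
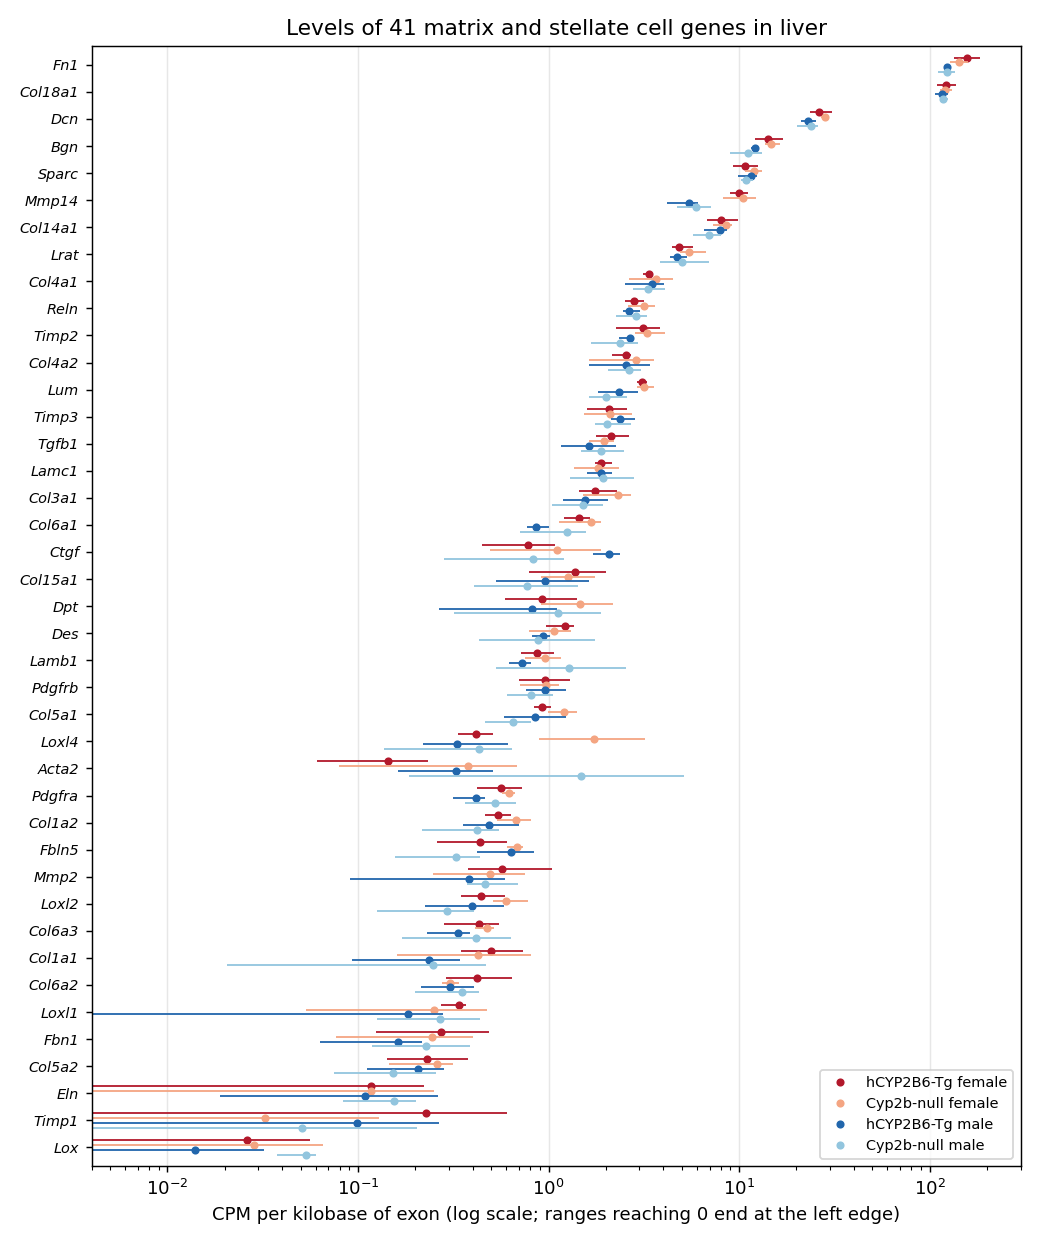
Level of each of the 41 genes in CPM per kilobase of exon (log scale), with the mean (point) and the range (line) of 4 libraries for hCYP2B6-Tg females, Cyp2b-null females, hCYP2B6-Tg males and Cyp2b-null males. Fn1 and Col18a1 lie above 100 CPM per kilobase, and Eln, Timp1 and Lox have libraries at 0.

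Per kilobase of exon, chains of the same collagen were not at equal levels. The lengths pool all annotated exons of a gene, whichever transcript they belong to, so the ratios depend on them. Per kilobase, the ratio of Col4a1 to Col4a2, the chains of the basement membrane collagen IV, had a median of 1.29 over the 16 libraries and ran from 0.911 to 1.63. The ratio of Col1a1 to Col1a2, the chains of collagen I, was more variable, with a median of 0.624 and a range of 0.0947 to 1.18. The lowest ratio came from Cyp2b-null male 3, which had 1 count of Col1a1. On that scale Col5a1 was above Col5a2 in every library (median ratio 4.20, 2.07 to 10.8), and Col6a1 above Col6a2 in every library (median 4.04, 1.90 to 6.34). The pooled lengths were 4380 bases for Col6a1 and 8326 for Col6a2. In hCYP2B6-Tg male 3, which had the ratio of 1.90, both genes stood at 3.385 CPM before scaling by length. These ratios are descriptions, and no test was made of them.

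Of the 41 genes, 37 passed the filter on low counts and were tested with edgeR, with p-values adjusted over 13470 genes and a threshold of 0.05. Between genotypes none of the 37 passed. In females 0 of the 37 passed, against 0% of all genes tested. In males 0 of 37 passed, against 0.126% of all genes (0.052% higher and 0.0742% lower in hCYP2B6-Tg). Of all genes tested, 17 passed in males with all libraries and 3 without Cyp2b-null male 4. Over omissions of single libraries this number ran from 2 to 22. For the difference between the genotype effects of the sexes 0 of 37 passed, against 0.0371% (0.0148% higher and 0.0223% lower), and for genotype over both sexes 0 of 37, against 0.0148%. At an unadjusted p under 0.05 there were 2 genes in females (7.27% of all genes), 4 in males (7.01%), 4 for the difference (7.55%) and 2 over both sexes (6.81%). DESeq2 called 1 listed gene in females and none in the other comparisons, and limma voom called none in any of them. DESeq2 gave no adjusted p for some genes, which count here as not called. Among these were Ctgf, Fbln5 and Col6a1 in males, and Loxl4, Col6a1, Lamb1, Dpt and Pdgfra over both sexes. For them DESeq2 could not make a call. Estimates were above 0 for 10 genes and below 0 for 27 in females, with a median log2 fold change, hCYP2B6-Tg over Cyp2b-null, of -0.11, beside 0.0018 over all genes. In males 18 were above and 19 below 0, with a median of -0.013, beside -0.0040 over all genes. The libraries of the genotypes did not overlap for 2 listed genes in females, both lower in hCYP2B6-Tg (Fbln5 and Loxl4; 1.76% of all genes), and none higher (1.74%). In males this held for 1 gene, higher in hCYP2B6-Tg (Ctgf; 2.4% of all genes), and none lower (2.37%).

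**Figure D2:**
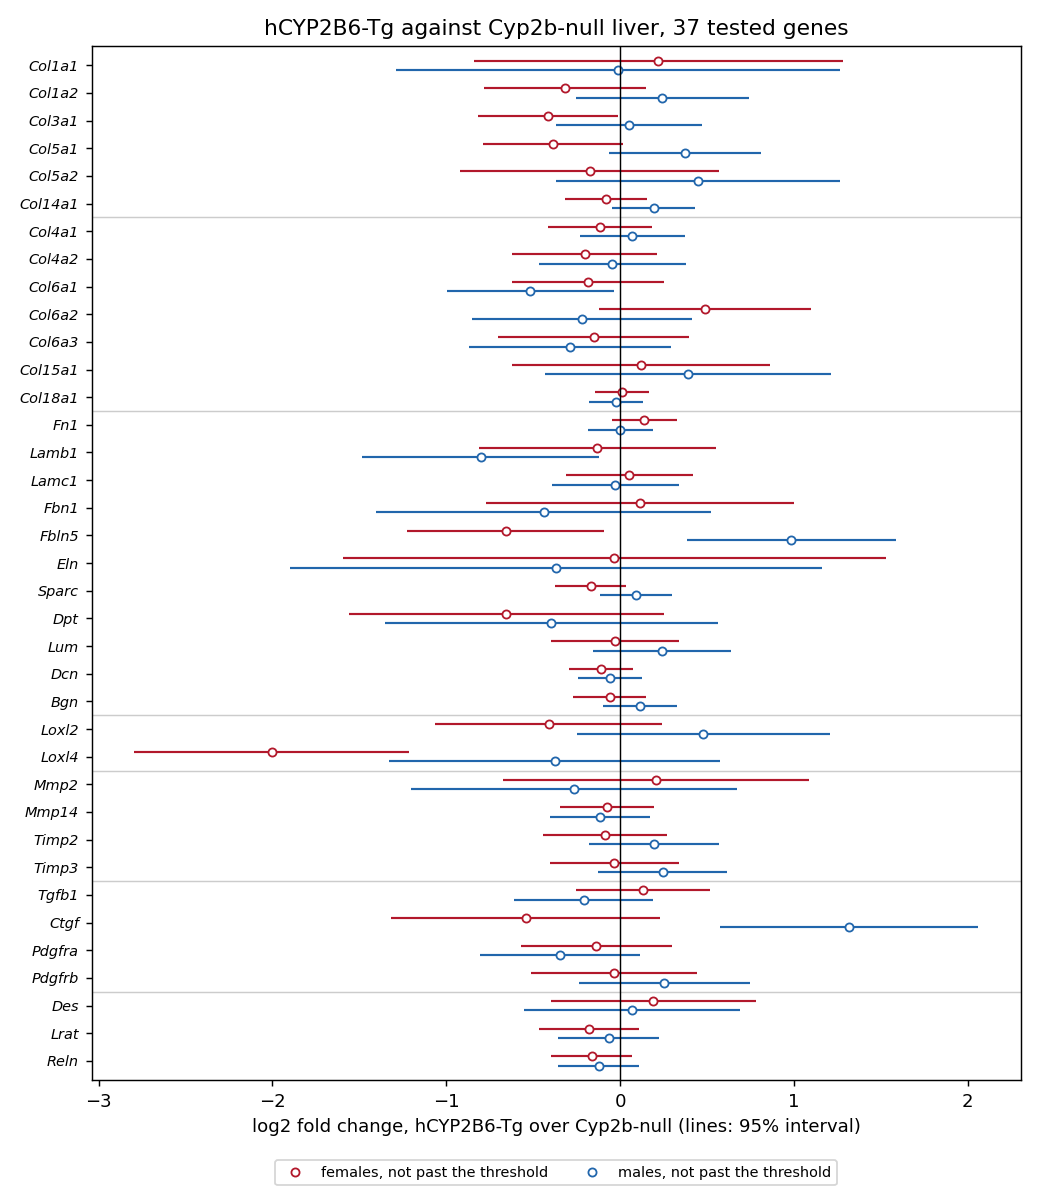
Log2 fold change of hCYP2B6-Tg over Cyp2b-null liver for the 37 tested genes, in females and in males, with 95% intervals (lines) from edgeR; genes are grouped by role, and every symbol is open because none passed the threshold. Loxl4 in females (-2.0) and Ctgf in males (1.32) lie farthest from 0.

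Between the sexes, 6 of the 37 genes were higher in Cyp2b-null females than in Cyp2b-null males and 0 were lower. That is 16.2% of the tested genes on the list, against 7.42% of all genes tested, of which 3.5% were higher and 3.93% lower in females. These 6 were Mmp14, Loxl4, Col5a1, Bgn, Fbln5 and Lum, and the same 6 passed in that fit without Cyp2b-null male 4. Of all genes tested, 1000 passed in this comparison with that library and 786 without it. Over omissions of single libraries the number ran from 741 to 1034. In hCYP2B6-Tg livers 3 genes were higher in females (Mmp14, Fn1 and Col6a1) and 1 was lower (Ctgf), together 10.8% of the 37, which is near the 10% of all genes that passed there (4.54% higher and 5.49% lower). At an unadjusted p under 0.05 there were 13 listed genes in Cyp2b-null livers (19.8% of all genes) and 4 in hCYP2B6-Tg livers (23%). Estimates were above 0 for 33 of 37 genes in Cyp2b-null livers, with a median of 0.26 beside 0.0041 over all genes, and for 28 of 37 in hCYP2B6-Tg livers, with a median of 0.15 beside 0.017. The libraries of the sexes did not overlap for 8 genes higher and 0 lower in Cyp2b-null females (5.66% and 6.64% of all genes), and for 4 genes higher and 1 lower in hCYP2B6-Tg females (7.41% and 8.2%). Of the tested genes on the list, only Mmp14 passed in both genotypes, and for no listed gene did the sex difference itself differ between genotypes past the threshold. The count in Cyp2b-null livers was 3 without Cyp2b-null female 4, Cyp2b-null male 2 or Cyp2b-null male 3, and the count in hCYP2B6-Tg livers was 1 without hCYP2B6-Tg female 2 and 2 without hCYP2B6-Tg female 5 or hCYP2B6-Tg male 5.

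**Figure D3:**
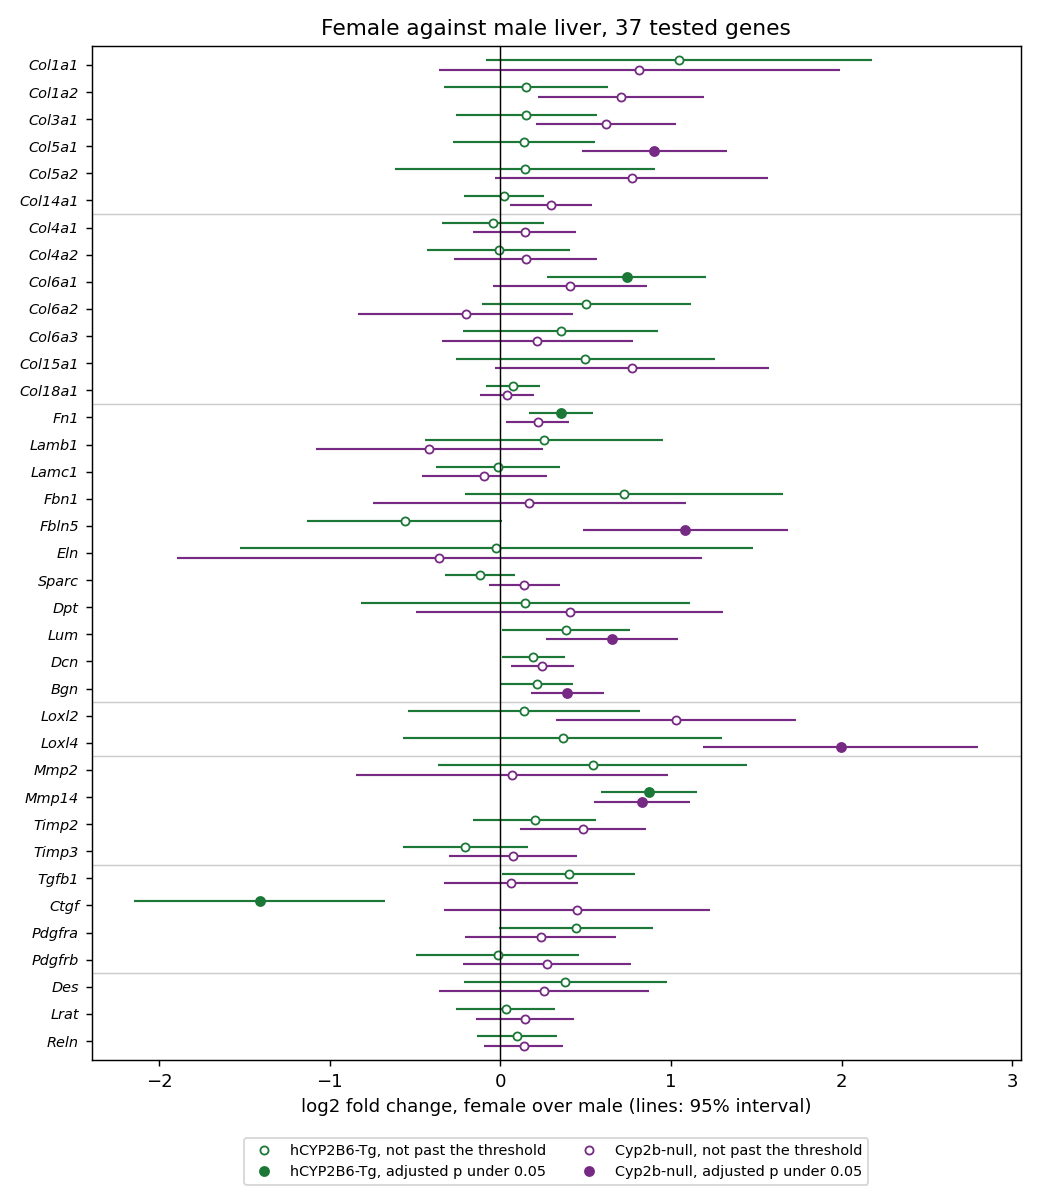
Log2 fold change of female over male liver for the 37 tested genes, in hCYP2B6-Tg and in Cyp2b-null mice, with 95% intervals (lines) from edgeR; filled symbols passed an adjusted p of 0.05. Most points lie right of 0, Mmp14 is filled in both genotypes, and Ctgf in hCYP2B6-Tg livers (-1.41) is the filled symbol on the left.

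Some cell type marker lists differed between the sexes, in both directions. The 17 stellate markers included Des, Lrat, Reln and Pdgfrb. They summed to 436 to 466 CPM in hCYP2B6-Tg females and 437 to 506 in Cyp2b-null females. In males the sums were 361 to 402 in hCYP2B6-Tg and 342 to 403 in Cyp2b-null livers. These sums thus did not overlap between the sexes in either genotype. Sums of the listed stellate and contractile markers alone (Des, Acta2, Lrat and Reln) did overlap in both. They were 89.9 to 108 CPM in hCYP2B6-Tg females against 86.4 to 102 in hCYP2B6-Tg males. In Cyp2b-null livers they were 93.5 to 123 in females against 77.1 to 117 in males. Of the 16 tested stellate markers, estimates were above 0 for 16 in Cyp2b-null and for 15 in hCYP2B6-Tg livers, and of these Ecm1 alone passed, with log2 fold changes, female over male, of 0.33 ± 0.08 in hCYP2B6-Tg (adjusted p = 0.00615) and 0.46 ± 0.08 in Cyp2b-null livers (adjusted p = 0.000243). That is 6.25% of the tested stellate markers in either genotype, below the 10% (hCYP2B6-Tg) and 7.42% (Cyp2b-null) of all genes. Gfap, used as a stellate marker in rodents, had 0 to 8 counts per library. The 6 Kupffer cell markers summed to 341 to 469 CPM in hCYP2B6-Tg females and 322 to 554 in Cyp2b-null females, against 262 to 332 in hCYP2B6-Tg males and 233 to 365 in Cyp2b-null males, so that the sexes overlapped in Cyp2b-null livers and did not in hCYP2B6-Tg livers. Of these 6 Vsig4 passed in both genotypes and Clec4f in Cyp2b-null livers. That is 16.7% in hCYP2B6-Tg and 33.3% in Cyp2b-null livers, beside 10% and 7.42% of all genes, on a list of 6. The 6 fat cell markers ran the other way and had a larger difference: they summed to 1.51 to 2.91 CPM in hCYP2B6-Tg females and 2.19 to 2.50 in Cyp2b-null females, against 13.0 to 55.5 in hCYP2B6-Tg males and 15.2 to 26.3 in Cyp2b-null males. Both tested genes of that list, the lipid droplet gene Cidec and the complement factor gene Cfd, passed as lower in females of both genotypes, with a median log2 fold change of -4.99 in hCYP2B6-Tg and -4.43 in Cyp2b-null livers, while the fat cell hormone genes Adipoq and Lep had at most 7 counts and 1 count in any library. These 2 genes are 100% of those tested on the list, beside 10% (hCYP2B6-Tg) and 7.42% (Cyp2b-null) of all genes. Between 1 and 5 of the 6 fat cell markers had no count in each library. The sum is therefore not read as an amount of fat cells. The 7 sinusoidal endothelium markers overlapped between the sexes, at 211 to 289 CPM in hCYP2B6-Tg females and 183 to 297 in Cyp2b-null females, against 237 to 269 in hCYP2B6-Tg males and 218 to 250 in Cyp2b-null males, and 0 of 7 passed in either genotype. The part of these markers in the sex differences of the matrix genes was not tested.

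**Figure D4:**
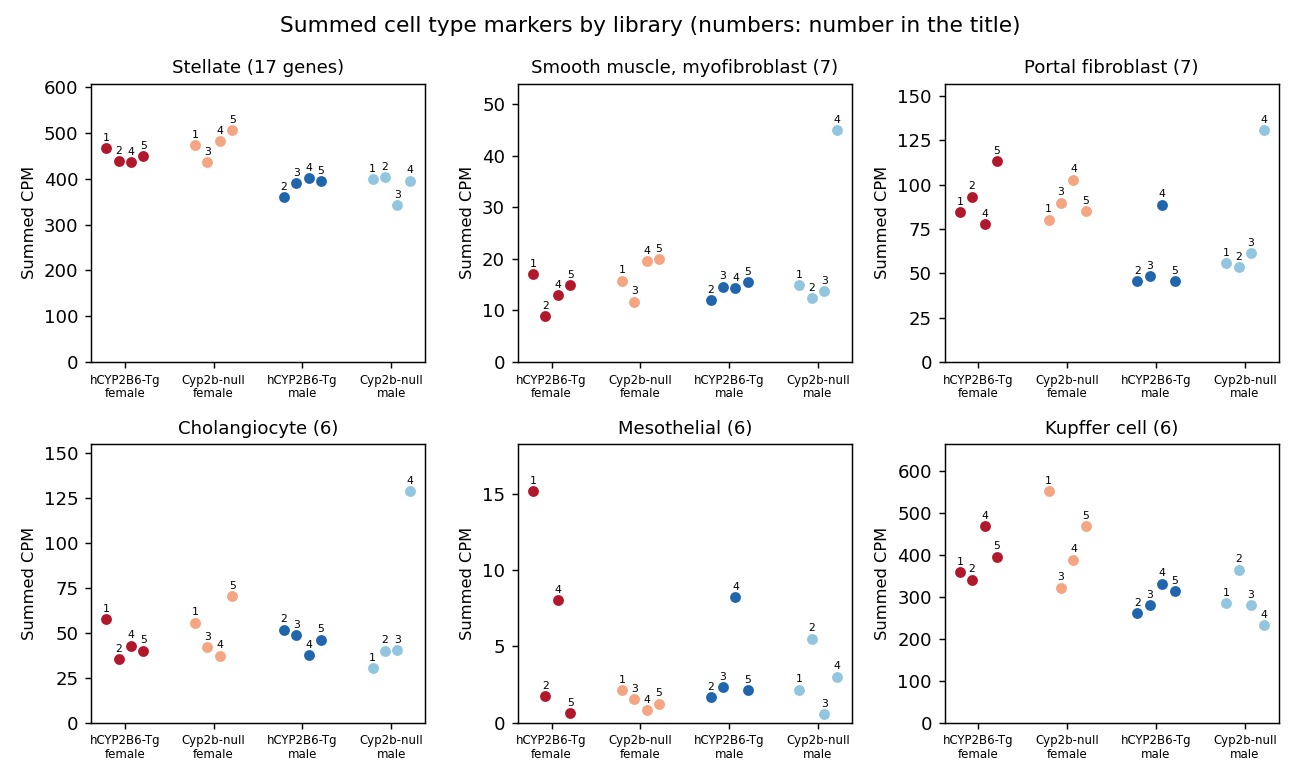
Summed CPM of 6 marker lists in each library (points, labelled with the number in the title), for hCYP2B6-Tg females, Cyp2b-null females, hCYP2B6-Tg males and Cyp2b-null males. The stellate sum is at or above 436 CPM in every female and at or below 403 CPM in every male library, and Cyp2b-null male 4 is high for smooth muscle (45.0), portal fibroblast (131) and cholangiocyte (129) markers.

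Among the proteases, Mmp14 was higher in females of both genotypes. Mmp14 (chr14:54431598-54442456, GRCm38.p6) encodes a membrane-bound collagenase that also activates the gelatinase Mmp2. Its level was 66.4, 56.5, 62.4 and 53.5 CPM in hCYP2B6-Tg females, 72.9, 49.0, 56.3 and 73.1 in Cyp2b-null females, 36.5, 33.7, 24.9 and 35.7 in hCYP2B6-Tg males, and 33.9, 36.5, 42.3 and 28.2 in Cyp2b-null males. Every female library was above every male library of both genotypes. The fold of females over males was 1.83 in hCYP2B6-Tg livers (log2 0.87 ± 0.14 SE, adjusted p = 0.000262) and 1.78 in Cyp2b-null livers (0.83 ± 0.14, adjusted p = 0.000487), and both calls held under each of the 16 omissions of a library and the 6 other settings. The difference between genotypes in this effect was 0.04 (95% interval -0.36 to 0.43), and genotype itself gave -0.07 (-0.35 to 0.20) in females and -0.11 (-0.40 to 0.17) in males. Mmp2, Timp2 and Timp3, a gelatinase and a pair of protease inhibitors, did not pass in any comparison; Timp2 averaged 12.8 ± 2.18 CPM in Cyp2b-null females and 9.19 ± 2.13 in Cyp2b-null males (SD, n = 4 each; log2 0.49 ± 0.19, adjusted p = 0.130).

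Among the crosslinking enzymes, Loxl4 had the largest log2 fold changes of the 37 tested genes for genotype in females and sex in Cyp2b-null livers. Loxl4 (chr19:42592279-42612806), a lysyl oxidase-like enzyme that joins collagen and elastin fibres, had 2.15, 1.98, 1.51 and 1.41 CPM in hCYP2B6-Tg females, 13.5, 3.74, 6.79 and 5.0 in Cyp2b-null females, 2.60, 0.923, 1.01 and 1.07 in hCYP2B6-Tg males, and 2.71, 1.65, 2.30 and 0.576 in Cyp2b-null males. The Cyp2b-null females were thus above all 12 other libraries, and the other 3 groups overlapped. In counts, Cyp2b-null females had 24 to 77 reads of Loxl4 and the other libraries 4 to 17. Females of the Cyp2b-null genotype were 3.98-fold higher than males (log2 1.99 ± 0.41, adjusted p = 0.00261), a call that held in all 16 omissions and 6 settings, while the sex difference in hCYP2B6-Tg livers was 0.37 ± 0.48 (adjusted p = 0.712). Both this comparison and the genotype comparison in females use the Cyp2b-null female libraries. For hCYP2B6-Tg against Cyp2b-null females the log2 fold change was -2.0 ± 0.40 (95% interval -2.80 to -1.21), with an unadjusted p of 5.36e-05 and an adjusted p of 0.18 from edgeR. The adjusted p was 0.0113 with DESeq2, 0.000116 with no filter on low counts and 0.211 with limma voom; over the 16 omissions it ran from 0.0895 to 0.783, and without Cyp2b-null female 1 the estimate was -1.56. The genotype effect in males was -0.38 ± 0.49, and the difference between the sexes was -1.63 ± 0.64 (adjusted p = 0.564).

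Loxl2, which acts on basement membrane collagen, did not pass; like Loxl4 it had its highest group mean in Cyp2b-null females, and unlike Loxl4 its lowest in Cyp2b-null males. Its values were 1.88, 2.10, 2.42 and 3.20 CPM in hCYP2B6-Tg females, 2.99, 4.21, 2.76 and 2.92 in Cyp2b-null females, 1.22, 2.46, 3.15 and 1.78 in hCYP2B6-Tg males, and 1.99, 2.20, 0.676 and 1.44 in Cyp2b-null males. All Cyp2b-null females were above all Cyp2b-null males, with a log2 fold change of 1.03 ± 0.36 and an adjusted p of 0.0862. Lox and Loxl1 were under the filter, so their CPM values were put to an exact two-sided permutation test, 4 libraries against 4, in which no p can be below 0.0286. Lox had 0, 1, 1 and 0 counts in hCYP2B6-Tg males and 1, 2, 2 and 2 in Cyp2b-null males, with an exact p of 0.0286 and 0.457 after adjustment over the 16 tests of genes under the filter; it was the 1 test of those 16 with an unadjusted p under 0.05, and its levels are too low to read a fold from. Loxl1 averaged 0.606 to 1.12 CPM in the 4 groups.

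Ctgf, the connective tissue growth factor that stellate cells and hepatocytes make in response to transforming growth factor beta, was the listed gene that was lower in females. RefSeq lists it as Ccn2 (chr10:24595442-24598683). It had 3.09, 1.28, 1.67 and 2.94 CPM in hCYP2B6-Tg females, 2.46, 1.40, 5.41 and 3.44 in Cyp2b-null females, 4.89, 6.00, 6.19 and 6.77 in hCYP2B6-Tg males, and 1.81, 3.44, 0.812 and 3.45 in Cyp2b-null males. The hCYP2B6-Tg males were above all hCYP2B6-Tg females and all Cyp2b-null males, and 1 Cyp2b-null female library, at 5.41, lay within their range. In hCYP2B6-Tg livers females were lower than males by a log2 fold change of -1.41 ± 0.38 (adjusted p = 0.0171; 0.0684 without hCYP2B6-Tg female 2 and 0.0557 without hCYP2B6-Tg female 4), while in Cyp2b-null livers the estimate was 0.45 ± 0.40. Between genotypes, the log2 fold change was 1.32 ± 0.38 in males (95% interval 0.58 to 2.06, adjusted p = 0.298) and -0.54 ± 0.40 in females, and the difference of the effects was -1.86 ± 0.55 (adjusted p = 0.363). With no filter on low counts the male and difference comparisons had adjusted p-values of 0.0159 and 0.0391.

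The other signalling genes did not pass. Tgfb1, the ligand, averaged 10.8 ± 1.84 CPM in hCYP2B6-Tg females, 9.84 ± 1.19 in Cyp2b-null females, 8.18 ± 2.45 in hCYP2B6-Tg males and 9.46 ± 2.26 in Cyp2b-null males (SD, n = 4 each). Pdgfrb, the receptor that defines mesenchymal cells of the liver, averaged 5.26 ± 1.41 CPM in hCYP2B6-Tg females, 5.31 ± 1.02 in Cyp2b-null females, 5.26 ± 1.15 in hCYP2B6-Tg males and 4.46 ± 1.23 in Cyp2b-null males. Pdgfra, a receptor of portal fibroblasts and stellate cells, had 7.26, 4.54, 4.24 and 6.53 CPM in hCYP2B6-Tg females, 6.67, 6.08, 6.45 and 5.73 in Cyp2b-null females, 4.58, 4.31, 3.15 and 4.63 in hCYP2B6-Tg males, and 5.24, 6.74, 3.65 and 5.47 in Cyp2b-null males. Its groups overlapped in each comparison except that of Cyp2b-null females with hCYP2B6-Tg males, which was not a comparison of the study. Over both sexes the genotype estimate for Pdgfra was -0.24 ± 0.16 (adjusted p = 0.815).

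Fbln5, a glycoprotein needed to assemble elastic fibres, had opposite genotype estimates in the sexes. Fbln5 (chr12:101746565-101819119) had 4.17, 3.03, 3.03 and 1.79 CPM in hCYP2B6-Tg females, 4.74, 4.21, 5.07 and 4.90 in Cyp2b-null females, 2.90, 3.85, 4.95 and 5.82 in hCYP2B6-Tg males, and 2.71, 2.20, 1.08 and 3.02 in Cyp2b-null males. All hCYP2B6-Tg females were below all Cyp2b-null females, and 3 of the 4 hCYP2B6-Tg males were above all Cyp2b-null males. The log2 fold change of genotype was -0.66 ± 0.29 in females (adjusted p = 0.654) and 0.99 ± 0.31 in males (adjusted p = 0.373), with a difference of -1.64 ± 0.42 (95% interval -2.47 to -0.82, unadjusted p = 0.000686, adjusted p = 0.292). Within Cyp2b-null livers females were 2.12-fold higher than males (log2 1.08 ± 0.31, adjusted p = 0.0280), while in hCYP2B6-Tg livers the estimate was -0.56 ± 0.29 (adjusted p = 0.254). The call in Cyp2b-null livers was lost without Cyp2b-null female 4 (0.0654), Cyp2b-null female 5 (0.0597), Cyp2b-null male 2 (0.0646) or Cyp2b-null male 3 (0.116).

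The small leucine-rich proteoglycans, which bind collagen fibrils and set their thickness, were all estimated higher in females. Lum (chr10:97565501-97572703), lumican, had 8.07, 7.45, 7.12 and 7.68 CPM in hCYP2B6-Tg females, 8.08, 8.73, 7.14 and 7.19 in Cyp2b-null females, 4.43, 4.92, 6.42 and 7.24 in hCYP2B6-Tg males, and 3.97, 4.26, 5.01 and 6.33 in Cyp2b-null males. Bgn (chrX:73483601-73495936), biglycan, had 104, 79.8, 74.3 and 85.7 CPM in hCYP2B6-Tg females, 83.2, 90.4, 99.7 and 85.0 in Cyp2b-null females, 74.1, 73.5, 77.8 and 70.5 in hCYP2B6-Tg males, and 80.2, 69.1, 54.7 and 69.5 in Cyp2b-null males. For both genes the sexes did not overlap in Cyp2b-null livers and overlapped in hCYP2B6-Tg livers. Lum was 1.57-fold higher in Cyp2b-null females than males (log2 0.65 ± 0.20, adjusted p = 0.0424) and Bgn 1.31-fold (0.39 ± 0.11, adjusted p = 0.0236). The hCYP2B6-Tg estimates were 0.38 ± 0.19 for Lum and 0.22 ± 0.11 for Bgn (adjusted p = 0.233 and 0.227). The Bgn call was lost without Cyp2b-null female 4 (0.0892), Cyp2b-null male 2 (0.0520) or Cyp2b-null male 3 (0.111). The Lum call was lost in 9 of the 16 omissions, those of hCYP2B6-Tg females 2 and 5, of any of the 4 Cyp2b-null females and of Cyp2b-null males 1, 2 and 3, with adjusted p-values of 0.0502 to 0.121, and also with no filter (0.0706).

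Dcn, decorin, the most abundant proteoglycan gene on the list, had 179, 143, 154 and 138 CPM in hCYP2B6-Tg females, 166, 157, 168 and 172 in Cyp2b-null females, 124, 124, 140 and 148 in hCYP2B6-Tg males, and 151, 152, 117 and 140 in Cyp2b-null males. The Cyp2b-null sexes did not overlap, but the log2 fold changes of sex, 0.19 ± 0.09 in hCYP2B6-Tg and 0.25 ± 0.09 in Cyp2b-null livers, did not pass (adjusted p = 0.221 and 0.126). Fn1 (chr1:71585473-71653280), fibronectin, had 1573, 1937, 1694 and 2147 CPM in hCYP2B6-Tg females, 1773, 1488, 1868 and 1547 in Cyp2b-null females, 1388, 1474, 1494 and 1386 in hCYP2B6-Tg males, and 1482, 1376, 1585 and 1293 in Cyp2b-null males. The sexes were apart in hCYP2B6-Tg livers and overlapped in Cyp2b-null livers. In hCYP2B6-Tg livers females were 1.28-fold higher (log2 0.36 ± 0.10, adjusted p = 0.0165), the fold was 1.16 in Cyp2b-null livers (0.22 ± 0.10, adjusted p = 0.190), and the effects differed by 0.14 (95% interval -0.13 to 0.40). The Fn1 call was lost without hCYP2B6-Tg female 2 (0.0561), hCYP2B6-Tg female 5 (0.0869) or hCYP2B6-Tg male 5 (0.0514). Between genotypes Fn1 gave 0.14 (-0.05 to 0.33) in females and 0.00 (-0.19 to 0.19) in males.

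Lamb1, a laminin chain of basement membranes, depended on the library that stood apart. It had 10.6, 7.10, 8.02 and 8.83 CPM in hCYP2B6-Tg females, 11.6, 7.48, 8.40 and 10.4 in Cyp2b-null females, 6.87, 6.15, 7.99 and 7.72 in hCYP2B6-Tg males, and 10.8, 9.08, 5.28 and 25.3 in Cyp2b-null males. The value of 25.3 is that of Cyp2b-null male 4. The genotype estimate in males was -0.80 ± 0.35 with all libraries (adjusted p = 0.667) and -0.20 ± 0.23 without that library. Lamc1, its partner chain, averaged 15.1 to 16.1 CPM in the 4 groups.

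Sparc, a collagen-binding protein of mesenchymal cells, had 42.4, 35.4, 36.5 and 47.7 CPM in hCYP2B6-Tg females, 46.4, 40.5, 45.1 and 49.8 in Cyp2b-null females, 37.6, 46.2, 47.3 and 44.6 in hCYP2B6-Tg males, and 41.2, 44.6, 40.3 and 39.0 in Cyp2b-null males. All 4 groups overlapped, and the genotype estimates were -0.17 ± 0.10 in females and 0.09 ± 0.11 in males (adjusted p = 0.777 and 0.921). Dpt, dermatopontin, which binds decorin, had 2.42, 1.28, 1.67 and 1.02 CPM in hCYP2B6-Tg females, 1.58, 3.74, 2.42 and 2.29 in Cyp2b-null females, 0.458, 1.85, 1.91 and 1.42 in hCYP2B6-Tg males, and 3.25, 0.550, 0.947 and 3.02 in Cyp2b-null males. Its estimate over both sexes was -0.53 ± 0.34 (adjusted p = 0.809), with overlap in each sex. Fbn1 and Eln, the microfibril and elastin genes, had wide intervals: for genotype in females that of Fbn1 ran from -0.77 to 1.0 and that of Eln from -1.60 to 1.53.

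Of the fibrillar collagens, Col5a1 passed between the sexes and collagens I and III did not. Col5a1 (chr2:27886381-28039510), a chain of collagen V that starts new fibrils, had 8.74, 7.10, 8.02 and 7.55 CPM in hCYP2B6-Tg females, 8.43, 12.0, 9.56 and 10.9 in Cyp2b-null females, 7.48, 10.5, 4.95 and 5.94 in hCYP2B6-Tg males, and 5.96, 5.23, 3.92 and 6.91 in Cyp2b-null males. The Cyp2b-null sexes did not overlap, and the hCYP2B6-Tg sexes did. Females were 1.87-fold higher in Cyp2b-null livers (log2 0.90 ± 0.22, adjusted p = 0.00856, held in all 16 omissions and 6 settings), against 0.14 ± 0.21 in hCYP2B6-Tg livers. The genotype estimates were -0.39 ± 0.21 in females and 0.37 ± 0.22 in males, and their difference was -0.76 ± 0.30 (adjusted p = 0.571).

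Col3a1, the collagen III chain of reticular fibres, had 22.5, 14.2, 17.7 and 14.3 CPM in hCYP2B6-Tg females, 14.9, 24.5, 26.5 and 24.7 in Cyp2b-null females, 11.8, 13.4, 20.1 and 15.8 in hCYP2B6-Tg males, and 19.0, 16.4, 10.3 and 14.2 in Cyp2b-null males. Except for Cyp2b-null female 1, the Cyp2b-null females were above all other libraries. The estimate of sex in Cyp2b-null livers was 0.62 ± 0.21 (adjusted p = 0.0843, 0.0161 without Cyp2b-null female 1 and 0.0493 without Cyp2b-null male 1), and that of genotype in females was -0.41 ± 0.21 (adjusted p = 0.698). Col1a2 gave 0.71 ± 0.25 for sex in Cyp2b-null livers (adjusted p = 0.0879), and Col1a1, with 1 to 36 counts per library, gave 0.82 ± 0.60 there and 1.05 ± 0.58 in hCYP2B6-Tg livers (adjusted p = 0.506 and 0.296). Col14a1, a collagen on the surface of fibrils, had 69.0, 59.5, 47.5 and 50.5 CPM in hCYP2B6-Tg females, 61.5, 51.5, 64.2 and 62.5 in Cyp2b-null females, 46.0, 58.9, 60.6 and 57.8 in hCYP2B6-Tg males, and 56.5, 51.2, 40.2 and 47.9 in Cyp2b-null males. Its genotype estimate in males was 0.19 ± 0.12 (adjusted p = 0.804), with 3 of the 4 hCYP2B6-Tg males above all Cyp2b-null males. Col5a2 had group means of 1.46 to 2.48 CPM, with genotype estimates of -0.17 ± 0.38 in females and 0.45 ± 0.42 in males. All 6 fibrillar and associated collagens had estimates above 0 for sex in both genotypes, with medians of 0.15 in hCYP2B6-Tg and 0.74 in Cyp2b-null livers.

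Among the network collagens Col6a1 passed, and the basement membrane chains of collagens IV, XV and XVIII did not. Col6a1 (chr10:76708792-76726044), a chain of the beaded filaments of collagen VI, had 6.05, 7.22, 5.30 and 6.78 CPM in hCYP2B6-Tg females, 7.73, 8.26, 8.17 and 5.0 in Cyp2b-null females, 3.67, 3.38, 4.39 and 3.68 in hCYP2B6-Tg males, and 6.86, 5.50, 3.11 and 6.48 in Cyp2b-null males. The hCYP2B6-Tg males were below all hCYP2B6-Tg females and below 3 of the 4 Cyp2b-null males. Females were 1.67-fold higher than males in hCYP2B6-Tg livers (log2 0.74 ± 0.24, adjusted p = 0.0467), and the estimate was 0.41 ± 0.23 in Cyp2b-null livers. This call was lost in 10 of the 16 omissions, those of hCYP2B6-Tg females 1, 2 and 5, Cyp2b-null females 1 and 4, any of the 4 hCYP2B6-Tg males and Cyp2b-null male 2 (adjusted p = 0.0527 to 0.128), and, of the settings for scaling and filtering, with RLE size factors (0.0502) and with no filter (0.0554). Genotype gave -0.52 ± 0.24 in males and -0.35 ± 0.17 over both sexes (adjusted p = 0.690 and 0.721). Col6a2, its partner chain, had 5.38, 3.49, 2.42 and 2.82 CPM in hCYP2B6-Tg females, 2.81, 2.49, 2.53 and 2.29 in Cyp2b-null females, 3.05, 3.38, 1.91 and 1.78 in hCYP2B6-Tg males, and 3.61, 1.65, 2.84 and 3.60 in Cyp2b-null males. These groups overlapped, and genotype in females gave 0.49 ± 0.31 (adjusted p = 0.785). Col6a3, another chain of collagen VI, did not pass in any comparison. It averaged 5.19 ± 1.44 CPM in hCYP2B6-Tg females and 5.71 ± 0.59 in Cyp2b-null females. In males it averaged 4.01 ± 0.88 in hCYP2B6-Tg and 5.01 ± 2.30 in Cyp2b-null livers. Group means ran from 24.8 to 27.2 CPM for Col4a1, from 16.8 to 19.2 for Col4a2 and from 4.88 to 8.78 for Col15a1. Genotype estimates in females were -0.12 ± 0.15 for Col4a1, -0.20 ± 0.21 for Col4a2 and 0.12 ± 0.38 for Col15a1. In males they were 0.07 ± 0.15, -0.04 ± 0.22 and 0.39 ± 0.42. Col18a1, the second most abundant gene of the list, differed by 0.01 (95% interval -0.15 to 0.17) between genotypes in females and by -0.02 (-0.18 to 0.13) in males, and between the sexes by 0.07 (-0.08 to 0.23) in hCYP2B6-Tg and 0.04 (-0.12 to 0.20) in Cyp2b-null livers.

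**Figure D5:**
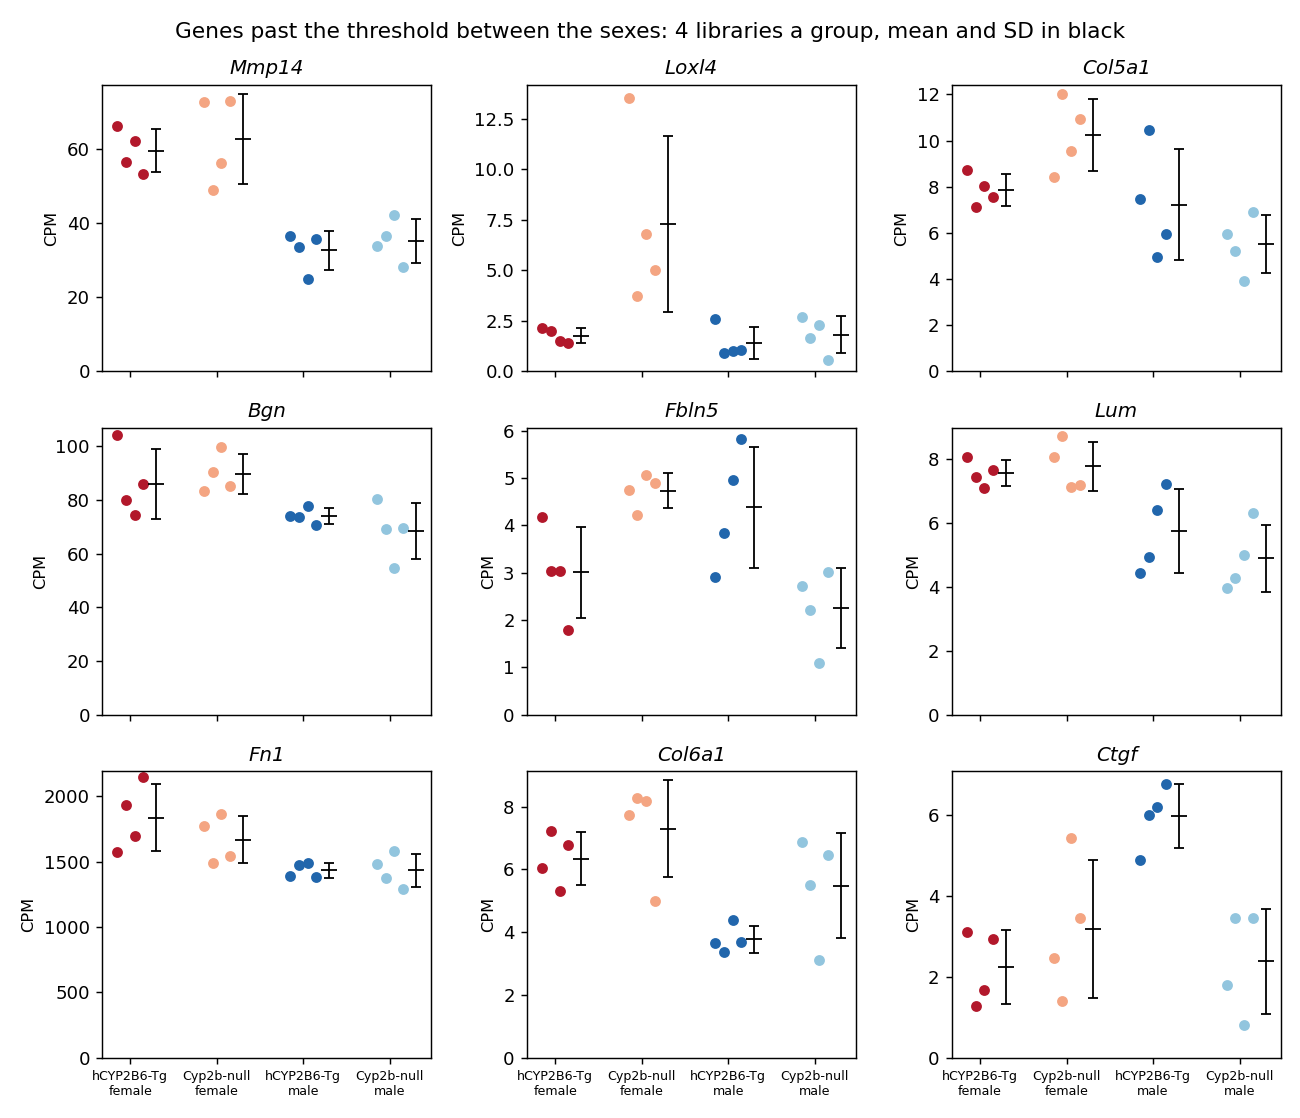
CPM in each library (points), with the mean and SD of 4 libraries in black, for the 9 genes that passed between the sexes in either genotype; groups run from hCYP2B6-Tg females through Cyp2b-null females and hCYP2B6-Tg males to Cyp2b-null males, and each axis starts at 0. For Mmp14 all 8 female libraries are above all 8 male libraries, for Loxl4 the 4 Cyp2b-null females are above all other libraries, and for Ctgf the hCYP2B6-Tg males are high.

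The stellate markers on the list did not pass in any comparison. Reln, reelin, which in liver is made by stellate cells, had 75.6, 60.6, 59.7 and 72.3 CPM in hCYP2B6-Tg females, 70.2, 61.7, 82.2 and 85.5 in Cyp2b-null females, 58.5, 71.7, 59.3 and 61.4 in hCYP2B6-Tg males, and 78.0, 73.6, 53.8 and 68.1 in Cyp2b-null males. Its groups overlapped, with a genotype estimate over both sexes of -0.14 ± 0.08 (adjusted p = 0.788). Lrat averaged 26.0 ± 3.32 CPM in hCYP2B6-Tg females, 29.4 ± 4.36 in Cyp2b-null females, 25.4 ± 2.53 in hCYP2B6-Tg males and 26.8 ± 7.10 in Cyp2b-null males (SD, n = 4 each). Acta2, the actin of contractile myofibroblasts and vascular smooth muscle, had 1, 4, 1 and 4 counts in hCYP2B6-Tg females, 1, 4, 13 and 10 in Cyp2b-null females, 4, 5, 10 and 3 in hCYP2B6-Tg males, and 4, 5, 3 and 78 in Cyp2b-null males. It was under the filter, and exact permutation gave p = 0.114 for genotype in females and 0.657 in males, and 0.114 for sex in hCYP2B6-Tg and 0.743 in Cyp2b-null livers. Without Cyp2b-null male 4, no exact test of a gene under the filter, Acta2 among them, gave a p below 0.0571. Des, an intermediate filament of stellate and muscle cells, had 46 counts in Cyp2b-null male 4 and 9 to 20 in the other Cyp2b-null males, and its genotype estimate in males was 0.07 ± 0.32 with that library and 0.64 ± 0.28 without it.

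The upstream sequences of some of the genes that passed between the sexes are shown beside the values. The printed genes were a choice and not all that passed. Col5a1 and Fbln5 also passed and had promoters, with GGGCGG in both and CCAAT in Fbln5, and are not printed. Of the listed genes, 27 had promoters in the RefSeq table of GRCm38.p6, and those of Mmp14, Loxl4, Bgn and Col6a1 are given as the 250 bases before the start of the gene, 5′ to 3′ on the gene's strand. Capitals mark matches, on either strand, to the letters CCAAT (the CCAAT box), GGGCGG (the GC box bound by Sp1) and TGAGTCA (the AP-1 site); TATAAA and TTCNNNGAA (the STAT site) were searched as well and are not in these windows.
Mmp14 (chr14:54431348-54431597, plus strand): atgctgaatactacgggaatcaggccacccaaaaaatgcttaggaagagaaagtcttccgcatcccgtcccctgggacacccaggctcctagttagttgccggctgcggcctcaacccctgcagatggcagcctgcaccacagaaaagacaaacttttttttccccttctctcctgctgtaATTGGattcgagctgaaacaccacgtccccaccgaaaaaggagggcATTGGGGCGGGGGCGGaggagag
Loxl4 (chr19:42612807-42613056, minus strand): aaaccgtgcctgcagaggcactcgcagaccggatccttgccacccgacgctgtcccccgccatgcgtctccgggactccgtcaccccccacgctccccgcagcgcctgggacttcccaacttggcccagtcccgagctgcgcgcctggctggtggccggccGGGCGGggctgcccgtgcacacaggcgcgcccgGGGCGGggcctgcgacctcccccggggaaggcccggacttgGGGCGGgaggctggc
Bgn (chrX:73483351-73483600, plus strand): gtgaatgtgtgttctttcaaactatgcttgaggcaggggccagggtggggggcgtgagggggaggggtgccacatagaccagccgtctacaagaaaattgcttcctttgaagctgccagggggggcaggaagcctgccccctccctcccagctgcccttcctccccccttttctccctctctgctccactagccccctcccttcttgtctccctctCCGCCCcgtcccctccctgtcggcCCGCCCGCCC
Col6a1 (chr10:76726045-76726294, minus strand): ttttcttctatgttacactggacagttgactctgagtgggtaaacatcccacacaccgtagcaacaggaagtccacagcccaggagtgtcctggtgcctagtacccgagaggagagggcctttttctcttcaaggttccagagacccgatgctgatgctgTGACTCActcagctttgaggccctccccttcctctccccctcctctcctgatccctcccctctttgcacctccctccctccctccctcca
Mmp14 has 2 CCAAT matches, at -69 to -65 and -23 to -19 from the start, and 2 GGGCGG matches, of which the first shares a base with the second CCAAT match. Loxl4 has 3 GGGCGG matches, Bgn has 3, which include 2 that overlap, and Col6a1 has 1 TGAGTCA match at -90 to -84.

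Matches over all promoters were counted in the 250 bases before the start. GGGCGG was present in 32.7% of 32851 promoters and in 19 of the 30 promoters of the 27 listed genes. CCAAT was present in 33.8% of all promoters and in 10 of the 30. TATAAA stood in 12.4% of all promoters and 1 of the 30, TTCNNNGAA in 7.02% and 1 (Dpt), and TGAGTCA in 4.46% and 1 (Col6a1). GC content of the printed stretches was 55.2% for Mmp14, 76% for Loxl4, 64.4% for Bgn and 56% for Col6a1, beside a median of 52.4% over all promoters. A match is a description of letters and not a measured binding site.

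Other genes of the same pathways had no call between genotypes either: 0 of 15 tested genes of collagen processing, 0 of 18 of transforming growth factor beta and platelet-derived growth factor signalling, 0 of 11 other matrix proteases and 0 of 13 matrix receptors passed in females, in males, for the difference and over both sexes with edgeR, and none did with DESeq2 or limma voom. Any gene left without an adjusted p by DESeq2 counts here as not called. At an unadjusted p under 0.05 the same lists had 0, 2, 0 and 0 genes in females (7.27% of all genes), 0, 2, 2 and 2 in males (7.01%), 0, 1, 3 and 0 for the difference (7.55%) and 0, 2, 0 and 1 over both sexes (6.81%). The 3 proteases for the difference are 27.3% of the 11 tested. In the signalling list Smad6, an inhibitor of bone morphogenetic protein and transforming growth factor beta signals, averaged 11.2 ± 0.83 CPM in hCYP2B6-Tg females and 12.0 ± 2.58 in Cyp2b-null females, against 6.83 ± 2.62 in hCYP2B6-Tg males and 6.30 ± 1.03 in Cyp2b-null males (SD, n = 4 each). It was higher in females in hCYP2B6-Tg (log2 0.72 ± 0.21, adjusted p = 0.0310) and in Cyp2b-null livers (0.92 ± 0.22, adjusted p = 0.00727), with the hCYP2B6-Tg call lost in 5 omissions, without hCYP2B6-Tg females 1, 2 or 5 or hCYP2B6-Tg males 3 or 4 (adjusted p = 0.0642 to 0.117). Tgfbr2, the type II receptor, was lower in hCYP2B6-Tg females than males (14.2 ± 3.18 and 24.4 ± 5.27 CPM, log2 -0.78 ± 0.15, adjusted p = 0.00120), with -0.42 ± 0.15 in Cyp2b-null livers (adjusted p = 0.0978). Pdgfa, a ligand of Pdgfra, was lower as well (3.92 ± 1.04 in hCYP2B6-Tg females and 7.10 ± 0.94 in hCYP2B6-Tg males, -0.86 ± 0.23, adjusted p = 0.0181; 0.0804 without hCYP2B6-Tg female 2 and 0.0715 without hCYP2B6-Tg male 5). Signalling genes that passed by sex were thus 1 higher and 2 lower in hCYP2B6-Tg livers (16.7% of the 18, against 10% of all genes), and 1 higher in Cyp2b-null livers (5.56%, against 7.42%).

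Matrix receptors that passed were Sdc1 and Sdc2, which are syndecans, heparan sulfate proteoglycans of the cell surface. Sdc1, which hepatocytes express, was higher in females by 0.51 ± 0.11 in hCYP2B6-Tg and 0.69 ± 0.11 in Cyp2b-null livers, and Sdc2 by 0.31 ± 0.08 in hCYP2B6-Tg and 0.39 ± 0.08 in Cyp2b-null livers, each with an adjusted p of at most 0.00718; none of the integrins on the list passed. The pair is 15.4% of the 13 tested receptors in either genotype, against 10% of all genes in hCYP2B6-Tg and 7.42% in Cyp2b-null livers. In collagen processing, 0 of 15 passed in Cyp2b-null livers and only Pcolce, an enhancer of procollagen cleavage, did in hCYP2B6-Tg livers (7.56 ± 1.73 CPM in females and 4.74 ± 0.91 in males, 0.66 ± 0.21, adjusted p = 0.0420), which is 6.67% of the 15. That call was lost in 6 omissions, without hCYP2B6-Tg females 4 or 5, Cyp2b-null female 4 or hCYP2B6-Tg males 2, 3 or 5 (adjusted p = 0.0511 to 0.202). Of the other matrix proteases, the lysosomal protease Ctsb was higher in females in both genotypes (0.30 ± 0.07 in hCYP2B6-Tg and 0.43 ± 0.07 in Cyp2b-null livers, adjusted p = 0.00579 and 0.000140). Plasminogen (Plg), made by hepatocytes, passed in hCYP2B6-Tg livers alone (0.34 ± 0.08, adjusted p = 0.00460), as did Mmp19 and, in the lower direction, the protease inhibitor Reck. That makes 4 of 11 in hCYP2B6-Tg livers (36.4%) and 1 of 11 in Cyp2b-null livers (9.09%), beside the same 10% and 7.42% of all genes.

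Markers of other cell types were read in the same libraries. Portal fibroblast markers, 7 genes, summed to 77.8 to 113 CPM in hCYP2B6-Tg females and 80.3 to 103 in Cyp2b-null females, against 45.4 to 88.7 in hCYP2B6-Tg males and 53.5 to 131 in Cyp2b-null males. The 2 highest male values belong to hCYP2B6-Tg male 4 and Cyp2b-null male 4, and the remaining 6 males were at or below 61.6 CPM. Smooth muscle and myofibroblast markers, also 7 genes, summed to 8.85 to 17.1 CPM in hCYP2B6-Tg females, 11.7 to 19.9 in Cyp2b-null females, 12.1 to 15.4 in hCYP2B6-Tg males and 12.4 to 45.0 in Cyp2b-null males. In none of the 4 genotype comparisons did a tested marker of the stellate, smooth muscle or portal fibroblast lists pass with edgeR, DESeq2 or limma voom, and none had an unadjusted edgeR p under 0.05. A marker without an adjusted p from DESeq2 counts as not passing. Whether portal or muscular tissue in single libraries moved the matrix genes was not tested.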

How the data were processed

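Liver RNA of 16 libraries, 4 per genotype and sex, was measured. The authors deposited whole-number read counts per gene symbol in 1 table. Per the submitters' processing notes, FastQC, Trimmomatic, GSNAP, Subread and edgeR were used with mouse build GRCm38.p6; versions, the strand setting and the treatment of reads with several positions were not stated, so genes that overlap others are uncertain as single genes. Libraries were prepared with a NEB Next Ultra RNA kit per the labels' protocols. Groups and library numbers come from the titles. The table had 41585 rows, 16032 of them without a count, and 3 unnamed columns without counts. A row for the human transgene was not analysed here.

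Genes were filtered with filterByExpr (13470 left, 37 of the 41 listed genes among them), scaled by TMM and tested with edgeR 4.0.16 (glmQLFit with robust estimation, glmQLFTest, two-sided) in 1 fit of 4 groups, with Benjamini-Hochberg adjustment over all genes tested and a threshold of 0.05. Values after ± are standard errors for log2 fold changes (from the fold change and F) and SDs for CPM. Intervals are 1.96 standard errors wide on each side. The 4 genes under the filter were compared on CPM by exact permutation, in 16 tests. Levels per kilobase use GENCODE vM21 exon lengths, pooled over all annotated exons of a gene, and promoters and coordinates are from RefSeq.

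The members, the lists of other genes and the alternatives were chosen with earlier results of these data known. Every listed gene is accounted for. Values in each library are given for listed genes past the threshold and for the 6 with the smallest p in each comparison, and up to 4 genes of each other list are named. The alternatives were RLE size factors, no filter, DESeq2 1.42.0, limma 3.58.1 voom with quality weights, a replicate block, omission of ribosomal RNA rows, and omission of each library in turn (R 4.3.3). The scripts were tested on simulated data. Within groups no pair of libraries looked like copies (chi-square divided by its degrees of freedom, 6.53 to 19.7). Same-numbered libraries of the genotypes did not deviate together (correlations of -0.062 to 0.075), so numbers were not taken to pair them.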

Additional observations from a re-analysis of the deposited data

Results flagged for a closer look

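In 13 of 164 groups of 4 libraries of the listed genes, and in 9 of 38 groups of marker sums, the highest or lowest library lay so far from its neighbour that the gap, as a share of the group's range, exceeded the 95% critical value of Dixon's test. Chance gives such a gap in about 1 group in 20.

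Of these, 2 of the gene values and 4 of the marker sums were from Cyp2b-null male 4. Acta2 was at 11.2 CPM there and at 0.406 to 0.722 in the other Cyp2b-null males, and Timp3, an inhibitor bound to the matrix, was at 22.0 against 14.3 to 15. In the same library smooth muscle markers summed to 45.0 CPM (12.4 to 15 in the others), portal fibroblast markers to 131 (53.5 to 61.6), cholangiocyte markers to 129 (30.2 to 40.3) and pancreatic acinar markers to 22.9 (0 in the others), the last from Ctrb1 alone. The source of these counts was not tested.

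Collagen and crosslinking genes with more than 1 count had 5 such libraries. Col4a2 was low in hCYP2B6-Tg female 2 (14.2 CPM, others 17.6 to 17.9), and Col6a1 was low in Cyp2b-null female 5 (5.0, others 7.73 to 8.26). Loxl2 was high in Cyp2b-null female 3 (4.21, others 2.76 to 2.99), Loxl4 was high in hCYP2B6-Tg male 2 (2.60, others 0.923 to 1.07), and Loxl1 was low in hCYP2B6-Tg female 5 (0.896, others 1.16 to 1.21). Among proteases and inhibitors, Mmp2 was high in hCYP2B6-Tg female 1 (3.5, others 1.28 to 1.51) and in Cyp2b-null male 2 (2.34, others 1.26 to 1.35), and Timp2 was low in hCYP2B6-Tg male 2 (9.16, others 10.9). The remaining gene values rest on 1 count each: Lox at 0.181 CPM in Cyp2b-null male 1, and Timp1 at 0.115 in Cyp2b-null female 4 and 0.181 in Cyp2b-null male 1.

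Of the other marker sums, stellate markers were low in Cyp2b-null male 3 (342 CPM, others 396 to 403), which also had the lowest Col1a1 value. In hCYP2B6-Tg male 4 portal fibroblast markers were high (88.7, others 45.4 to 48.5), as were mesothelial markers (8.22, others 1.68 to 2.31). Fat cell markers were low in Cyp2b-null male 3 (15.2, others 24.7 to 26.3), and acinar markers stood at 0.104 in Cyp2b-null female 5 from 1 count, with 0 in the others.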

How the results depend on the processing

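With no filter on low counts, 1 listed gene each passed for genotype in females, in males, for their difference and over both sexes, where the fit as reported called 0 each; DESeq2 and the replicate block also called 1 in females. The gene was Loxl4 in females and over both sexes, and Ctgf in males and for the difference. Genes called among all tested also moved: in females 0 as reported, 12 with no filter, 12 with DESeq2 and 2 with the replicate block; in males 17, 62, 47 and 5; for the difference 5, 36, 16 and 11; over both sexes 2, 34 and 31, and 2 with the block. The cause was not tested. The block called 5 listed genes for sex in Cyp2b-null and 3 in hCYP2B6-Tg livers, where 6 and 4 are reported, without Lum in Cyp2b-null (adjusted p = 0.119) and Col6a1 in hCYP2B6-Tg livers (0.113); 1 of 6 libraries with a same-numbered partner correlated best with it, and a call lost under the block is not read as a weaker effect. Over the omission of each library, listed genes called for sex ran from 3 to 6 in Cyp2b-null livers (3 without Cyp2b-null female 4, male 2 or male 3) and from 1 to 4 in hCYP2B6-Tg livers (1 without hCYP2B6-Tg female 2, 2 without hCYP2B6-Tg female 5 or male 5), and were 0 for genotype in each of the 16. Among genes under the filter, tests with an exact p under 0.05 ran from 0 to 2, where 1 is reported (2 without hCYP2B6-Tg female 5 or Cyp2b-null female 1, 0 without Cyp2b-null male 2, 3 or 4). Values for named genes and median log2 fold changes of the listed genes were compared with the fit as reported. A gene held if it kept direction and side of the threshold, and a median held if it moved by less than 0.316. Over the settings 241 held, 6 gained a call and 5 lost it. Those held include genes for which DESeq2 gave no adjusted p, such as Ctgf in males, which could not gain a call there. Over the omissions 641 held and 31 lost the call. No gene changed direction with a call. Timp1 had 11 reads and Lox 18 in all 16 libraries; beside these low counts the test itself limits such genes, since the lowest exact p of 4 libraries against 4, 0.0286, which Lox reached for genotype in males, became 0.457 over the 16 tests.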
